A study of Mus musculus with 12 samples.

Results

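The 36 genes described here code for integrin subunits and for adhesive glycoproteins of the extracellular matrix, and they were taken from the 18193 genes measured on 12 Affymetrix arrays. They were chosen by symbol: every measured gene named Itga with any suffix (16 alpha subunits), Itgb1 to Itgb8 (8 beta subunits), and 12 matrix glycoproteins, namely Fn1, Vtn, Tnc, Thbs1 to Thbs4, Postn, Fbln1, Fbln2, Fbln5 and Emilin1. Spp1, which the same choice names, was not analysed here. The arrays compared TBV2 cells, a wild-type embryonic stem cell line of strain 129/SvP, with the same cells after L-proline treatment, whose products the labels call PiCs, for L-Pro-induced cells. Both groups were seeded sparsely on gelatin, with no feeder layer, and grown over 5 days in medium that held leukemia inhibitory factor and lacked non essential amino acids. Proline dishes also received 500 µM L-proline, and controls received no addition. Each group had 2 biological replicates of 3 arrays each, and the 3 arrays were averaged, so every difference below compares 2 values with 2. The labels do not say how the replicates were kept apart. A p-value here thus reflects the spread of these 4 means within their groups, part of which may be technical. It also draws on the spread over all genes, which the fit shares between genes.

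Integrins are receptors made of 1 alpha and 1 beta chain that anchor cells to the matrix, and the pair decides the ligand. Several alpha chains with Itgb1, and the alpha-v chain with several beta chains, recognise the arginine-glycine-aspartate motif of fibronectin and vitronectin, while other pairs bind laminin, collagen or counter-receptors on leukocytes. Inside the cell, talin and kindlins bind the beta tail and recruit kinases and actin-binding proteins such as zyxin. Thrombospondins, tenascin, periostin and fibulins are matrix proteins that integrins or neighbouring receptors bind and that often tune adhesion more than they build fibres.

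Only 1 of the 36 genes passed the test: Thbs4, which rose. The threshold was limma's Benjamini-Hochberg adjusted p below 0.05 over all genes, which 2.78% of the 36 met against 4.36% of all 18193 genes. At an unadjusted p under 0.05 there were 11 genes, 6 higher and 5 lower, or 30.6% against 22.1% of all genes. In 12 genes the 6 proline arrays did not overlap the 6 control arrays, with 7 above and 5 below, which is 33.3% against 24.6% of all genes. Differences of at least 2-fold, without regard to the test, occurred in 7 genes, 6 higher and 1 lower (19.4% against 6.93%). The median log2 difference was -0.07, beside -0.03 over all genes. Ignoring sign, the median difference was 0.33, beside 0.18 over all genes. The 24 integrin subunits held 0 genes past limma's adjusted threshold and 10 at an unadjusted p under 0.05 (41.7%), 5 in each direction. Among the 12 glycoproteins 1 passed (8.33%) and 11 did not. The 36 genes were chosen with earlier results of these data known, so these shares cannot be read as a property of the group.

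Signals are log2 values of 1 probe set per gene, the one with the highest mean, and the differences are proline minus control with limma's moderated standard error (SE). A mean signal below 5.36, the 40th percentile of all probe sets, is called dim here, since no detection call was used. Of the 36 genes, 12 were dim in both groups, Itga8 and Thbs4 in control alone, and Itga2, Itga7, Itgb3 and Tnc in proline alone. Arrays of 1 biological replicate correlated at 0.996 to 0.998 over all probe sets, arrays of the 2 replicates of a group at 0.985 to 0.989, and control with proline arrays at 0.962 to 0.981. The 5′ minus 3′ signal of the beta-actin control probes, which falls as RNA or cRNA shortens, was -0.90 and -0.50 in the control replicates and -0.66 and -0.24 in the proline replicates. The 18S ribosomal RNA control probes moved more with the groups, at 10.74 and 10.04 in control and 9.74 and 8.35 in proline, and the part of either measure in the results below was not tested. Of 8 embryonic stem cell markers none was dim and all 8 had a difference below 0. At limma's unadjusted p under 0.05 there were 5 (62.5%, beside 22.1% of all genes). Past the adjusted threshold 2 fell (25%, beside 4.36%), Esrrb by 1.49 and Zfp42 by 1.39 on the log2 scale (limma adjusted p = 0.0246 and 0.0288). The mean signal of the 8 markers was 12.75 and 12.79 in the control replicates and 12.13 and 12.18 in the proline replicates. Markers of fibroblasts (11 genes), endoderm (11 genes) and trophoblast (7 genes) gave 0 genes past limma's adjusted threshold. At an unadjusted p under 0.05 they gave 2, 3 and 2 (18.2%, 27.3% and 28.6%, beside 22.1% of all genes). The endoderm markers averaged 5.23 and 5.21 in the control replicates and 5.48 and 5.57 in the proline replicates, with 6 of the 11 dim in both groups, and their part in the results below was not tested. In such bulk samples, fewer cells of a type and less RNA per cell cannot be told apart.

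**Figure D1:**
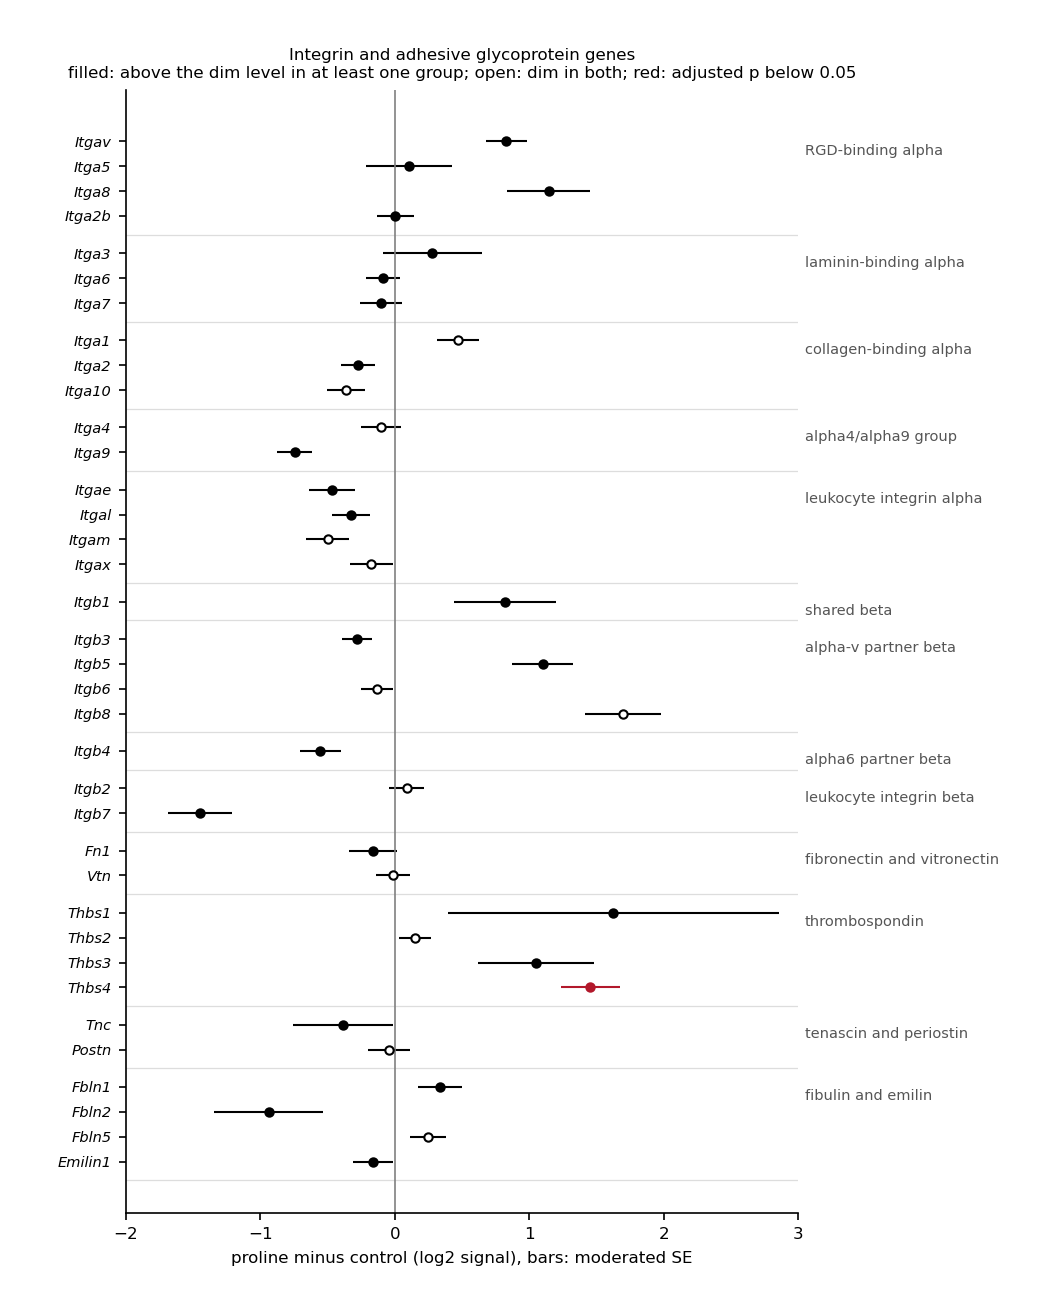
Proline minus control log2 difference of the 36 genes, ordered by role; points are the difference of 2 against 2 biological replicate means and bars are limma's moderated SE. Open points are dim in both groups. Thbs4, in red, is the gene with an adjusted p below 0.05; 20 points lie below 0 and 16 above.

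Among the alpha chains of receptors for arginine-glycine-aspartate ligands, none passed limma's test. By the probe set used for each, 2 of the 4 (Itgav and Itga8) were higher on every proline array, both at an unadjusted p under 0.05. Over all genes 24.6% had arrays that did not overlap and 22.1% had such a p. Itgav, whose partner chains include Itgb3, Itgb5, Itgb6 and Itgb8, had replicate means of 9.02 and 9.14 in control and 9.76 and 10.07 in proline. Across single arrays, Itgav ran from 8.94 to 9.29 in control (median 9.07) and from 9.69 to 10.22 in proline (median 9.85), so the groups did not overlap. The log2 difference of Itgav was 0.83 ± 0.15 (SE), a 1.78-fold higher signal with a limma adjusted p of 0.0635. Itga8, a nephronectin receptor chain that pairs with Itgb1, had replicate means of 4.68 and 4.81 in control and 5.45 and 6.32 in proline. Its arrays ran from 4.47 to 5.02 in control (median 4.78) and from 5.35 to 6.49 in proline (median 5.87). The second proline replicate of Itga8 was the higher, and the difference was 1.14 ± 0.31 (SE; limma adjusted p = 0.127).

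Itga5, the alpha chain of the main fibronectin receptor, had replicate means of 8.08 and 7.16 in control and 7.71 and 7.75 in proline. Across single arrays, Itga5 ran from 6.87 to 8.38 in control (median 7.60) and from 7.38 to 7.99 in proline (median 7.76). Both proline replicates lay between the control replicates, and the difference was 0.11 ± 0.32 (SE; limma adjusted p = 0.898). The probe set used for Itga5 carries the suffix that Affymetrix gives to sets able to match several transcripts. Without the second control replicate the difference turned to -0.35. Itga2b, the platelet fibrinogen receptor chain, differed by 0.00 ± 0.14 (SE), with replicate means from 6.78 to 7.04.

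The chains that bind laminin, the main network-forming protein of basement membranes, all overlapped between groups. Arrays that did not overlap occurred in 24.6% of all genes. Itga6, which pairs with Itgb1 or Itgb4, had replicate means of 11.32 and 11.38 in control and 11.17 and 11.36 in proline. Across single arrays, Itga6 ran from 11.26 to 11.50 in control (median 11.35) and from 11.11 to 11.43 in proline (median 11.26). The difference was -0.09 ± 0.13 (SE; limma adjusted p = 0.783), with a 95% interval from -0.42 to 0.25. Itga3 had replicate means of 9.41 and 9.27 in control but 9.09 and 10.15 in proline. One proline replicate of Itga3 was thus below and the other above both controls, and the difference of 0.28 ± 0.37 (SE) became -0.25 without the second proline replicate. Itga7, the laminin receptor chain known from muscle, differed by -0.10 ± 0.16 (SE) near the dim level.

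Of the collagen receptor chains, 1 of 3 was higher on every proline array and 1 was lower, by the probe set used. None passed limma's test. Over all genes 24.6% had arrays that did not overlap. Itga1 had replicate means of 4.43 and 4.39 in control and 4.72 and 5.05 in proline. Its arrays ran from 4.25 to 4.61 (median 4.43) and from 4.69 to 5.11 (median 4.83), all dim, with a difference of 0.47 ± 0.16 (SE; limma adjusted p = 0.180). Itga2 had replicate means of 5.38 and 5.54 in control and 5.24 and 5.13 in proline. Its control arrays (5.31 to 5.69, median 5.42) lay just above its proline arrays (4.99 to 5.28, median 5.21), with a difference of -0.27 ± 0.13 (SE; limma adjusted p = 0.301). Itga10 was dim in both groups and differed by -0.36 ± 0.14 (SE).

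Itga9, a receptor chain for tenascin-C and VCAM1, had replicate means of 7.20 and 7.01 in control and 6.31 and 6.41 in proline. Across single arrays, Itga9 ran from 6.91 to 7.32 in control (median 7.12) and from 5.98 to 6.51 in proline (median 6.42). Every proline array lay below every control array, a difference of -0.75 ± 0.13 (SE), or a 1.68-fold lower signal (limma adjusted p = 0.0581). Its close relative Itga4 was dim in both groups, differing by -0.10 ± 0.15 (SE).

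Itgb1, the beta chain shared by most matrix-binding integrins, had replicate means of 9.12 and 9.69 in control and 9.75 and 10.70 in proline. Across single arrays, Itgb1 ran from 8.98 to 9.88 in control (median 9.36) and from 9.70 to 10.83 in proline (median 10.19). The first proline replicate exceeded the second control replicate by only 0.07, so the arrays overlapped, and the difference was 0.82 ± 0.38 (SE; limma adjusted p = 0.306).

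The alpha-v partners Itgb3, Itgb5, Itgb6 and Itgb8 differed among themselves. By the probe set used, Itgb5 and Itgb8 were higher on every proline array, Itgb3 was lower on every one, and Itgb6 was dim and overlapped. None of the 4 passed limma's adjusted threshold, and 2 had an unadjusted p under 0.05. Over all genes 22.1% had such a p and 24.6% had arrays that did not overlap. Itgb5, a vitronectin receptor chain, had replicate means of 8.44 and 8.81 in control and 9.49 and 9.96 in proline. Across single arrays, Itgb5 ran from 8.28 to 8.89 in control (median 8.61) and from 9.32 to 10.02 in proline (median 9.75). That is a difference of 1.10 ± 0.23 (SE), or a 2.14-fold higher signal (limma adjusted p = 0.0771). Itgb8, whose pair with alpha-v activates latent TGF-beta, had replicate means of 3.46 and 3.73 in control and 4.93 and 5.67 in proline. Across single arrays, Itgb8 ran from 3.14 to 3.83 in control (median 3.69) and from 4.78 to 6.11 in proline (median 5.12). The gap was 1.70 ± 0.28 (SE; limma adjusted p = 0.0519), from a signal that was dim in both groups by its mean. Itgb3, the beta-3 chain, had replicate means of 5.43 and 5.33 in control and 5.10 and 5.10 in proline. Its control arrays (5.29 to 5.62, median 5.34) and proline arrays (4.98 to 5.22, median 5.10) were narrowly apart, with a difference of -0.28 ± 0.11 (SE; limma adjusted p = 0.251). Itgb6, known from epithelia, differed by -0.13 ± 0.12 (SE).

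The promoter-proximal sequences of the 2 alpha-v partners that were higher on every proline array are shown for reference, read 5′ to 3′ on the gene's strand from RefSeq (GRCm38.p6). Each holds 100 bases before and 50 after the annotated start, at chr16:33829565-33829714 on the + strand for Itgb5 and chr12:119238227-119238376 on the - strand for Itgb8. Capitals mark the GC box (GGGCGG) in Itgb5 and the E2 box (CAGGTG) in Itgb8, each searched on both strands.
Itgb5: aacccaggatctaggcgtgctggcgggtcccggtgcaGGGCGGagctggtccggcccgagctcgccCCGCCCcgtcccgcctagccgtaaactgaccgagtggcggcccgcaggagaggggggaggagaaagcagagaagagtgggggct
Itgb8: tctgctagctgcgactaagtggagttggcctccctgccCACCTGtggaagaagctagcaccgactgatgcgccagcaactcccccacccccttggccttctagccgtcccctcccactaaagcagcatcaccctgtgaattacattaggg
The GC boxes of Itgb5 begin 63 and 34 bases before the start, and the E2 box of Itgb8 begins 62 bases before it. A GC box occurred in 35.9% of all 32544 RefSeq windows of 300 bases (250 before and 50 after a start) and in 16 of the 33 windows of the adhesion genes (48.5%). The E2 box occurred in 20.3% of all windows and 21.2% of these. The 33 windows belong to 27 of the 36 genes, and windows of a gene can overlap, so the same GC box of Tnc counts in 2 of them. Median GC content was 56.7% in the 33 windows and 53.0% in all windows, and its part in the GC box share was not tested.

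**Figure D2:**
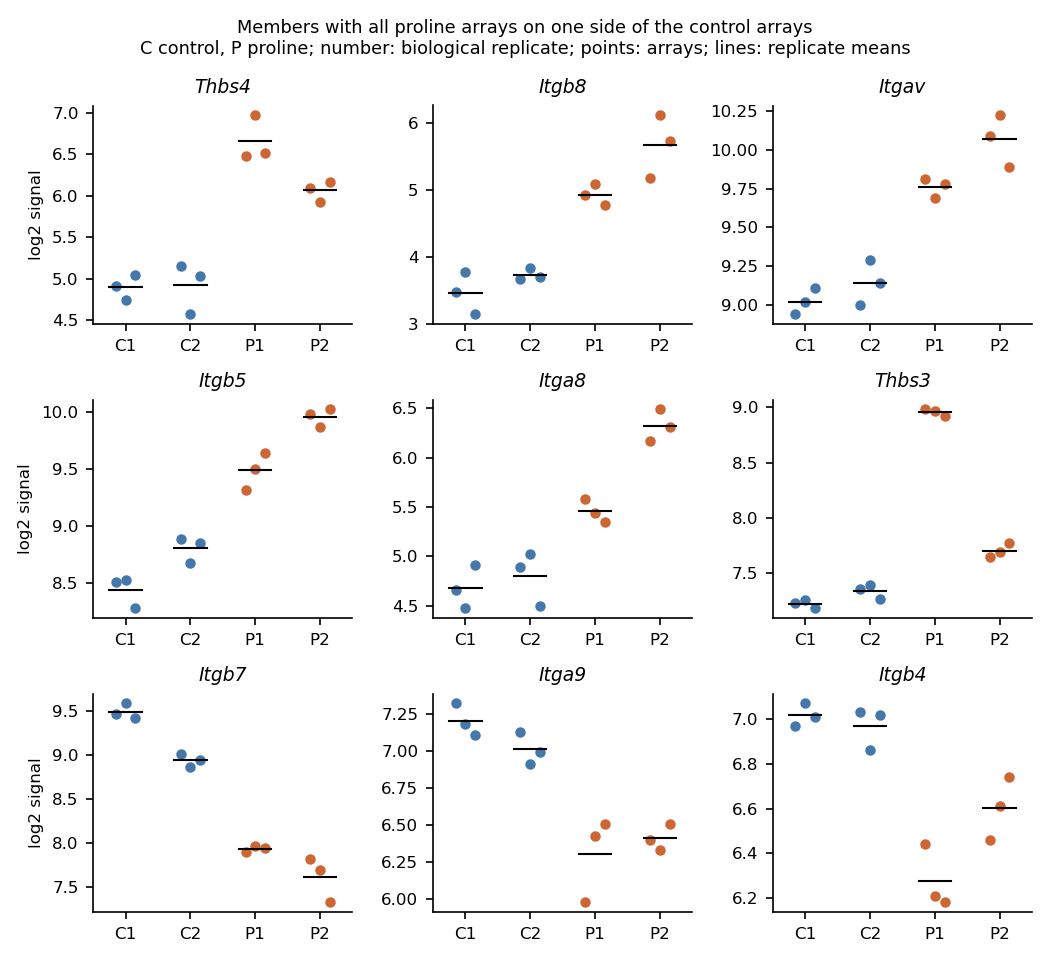
Log2 signal on each of the 12 arrays for 9 of the 12 genes with no overlap between proline and control arrays (Itga1, Itga2 and Itgb3 are not drawn); the vertical scales differ and do not start at 0. Points are arrays, C1, C2, P1 and P2 are the biological replicates, and lines are replicate means. In Thbs3 the arrays of the first proline replicate sit near 8.96 and those of the second near 7.70.

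Itgb4, the partner of Itga6 in hemidesmosomes, had replicate means of 7.02 and 6.97 in control and 6.28 and 6.60 in proline. Across single arrays, Itgb4 ran from 6.86 to 7.07 in control (median 7.02) and from 6.18 to 6.74 in proline (median 6.45). All proline arrays were lower, by -0.55 ± 0.15 (SE; limma adjusted p = 0.132).

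By the probe set used for each, the integrin chains known from leukocytes gave 1 gene with separated groups among 6, beside 24.6% of all genes. A second probe set of Itgae and one of Itgal were also lower on every proline array, as given below. Itgb7, which pairs with Itga4 and Itgae, had replicate means of 9.49 and 8.94 in control and 7.93 and 7.61 in proline. Across single arrays, Itgb7 ran from 8.86 to 9.59 in control (median 9.22) and from 7.32 to 7.96 in proline (median 7.86). Its difference was -1.45 ± 0.24 (SE), a 2.73-fold lower signal, and it missed the threshold narrowly (limma adjusted p = 0.0518). With quantile normalization the adjusted p was 0.0472, and without dim genes it was 0.0370, so the call of Itgb7 turned on the setting. Itgae, a receptor chain for E-cadherin, differed by -0.47 ± 0.17 (SE) and Itgal by -0.33 ± 0.14. Itgax differed by -0.18 ± 0.16, Itgam by -0.50 ± 0.16 and Itgb2 by 0.09 ± 0.13, each of them dim in both groups. Of 8 blood cell markers, 1 fell (Laptm5, a lysosomal protein of haematopoietic cells, by 2.44 on the log2 scale, limma adjusted p = 0.0470) and 0 rose. Of the 8, 12.5% thus passed, beside 4.36% of all genes, and 37.5% had arrays that did not overlap, beside 24.6%. Their mean signal was 6.28 and 6.10 in the control replicates and 5.93 and 5.77 in the proline replicates, 7 of the 8 differences were below 0, and 4 markers were dim in both groups. Ptprc, the CD45 gene, was dim, with replicate means from 3.54 to 3.79. Laptm5 (10.54 and 9.44 in control, 7.60 and 7.50 in proline) and Cd68 (8.08 and 7.64 in control, 7.43 and 7.46 in proline) were not dim and were lower on every proline array. Coro1a, an actin-binding protein of blood cells, was higher on every proline array, with a difference of 0.94 ± 0.23 (SE; limma adjusted p = 0.107). The part of these markers in the values of the leukocyte chains was not tested.

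Fibronectin, which cells assemble into fibrils, and vitronectin, a plasma and matrix protein, did not pass the test. Fn1 had replicate means of 12.65 and 12.99 in control and 12.52 and 12.78 in proline. Across single arrays, Fn1 ran from 12.62 to 13.01 in control (median 12.83) and from 12.50 to 12.84 in proline (median 12.64). These overlap, and the difference was -0.16 ± 0.18 (SE; limma adjusted p = 0.685), with a 95% interval from -0.64 to 0.31. Vtn had replicate means of 4.82 and 4.68 in control and 4.81 and 4.67 in proline. Its arrays ran from 4.58 to 4.98 (median 4.73) and from 4.29 to 5.08 (median 4.78), dim throughout. The groups of Vtn lay on top of each other, with a difference of -0.01 ± 0.13 (SE; limma adjusted p = 0.970) and a 95% interval from -0.35 to 0.32.

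The thrombospondins, multidomain glycoproteins of the pericellular matrix, held the gene that passed. Thbs4, one of the pentameric members, had replicate means of 4.89 and 4.92 in control and 6.66 and 6.07 in proline. Across single arrays, Thbs4 ran from 4.57 to 5.16 in control (median 4.97) and from 5.93 to 6.97 in proline (median 6.32). The control arrays were dim and every proline array stood above all of them. Thbs4 rose by 1.46 ± 0.22 (SE) on the log2 scale, a 2.74-fold increase (limma adjusted p = 0.0459). The call was near the threshold. Leaving out any 1 of the 4 replicates gave differences from 1.16 to 1.75. Such fits keep only 1 value in a group, so they cannot judge the call. The median over each gene's probe sets gave a limma adjusted p of 0.0620 and a test of every probe set 0.0739, and Thbs4 itself has 1 probe set.

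The Thbs4 promoter window from RefSeq (GRCm38.p6, chr13:92794769-92795068, - strand, 250 bases before and 50 after the start) is given because it belongs to the gene that passed. It reads 5′ to 3′ on the gene's strand, and capitals mark GC boxes (GGGCGG), a TEAD motif (GGAATG) and an E2 box (CAGGTG), each searched on both strands.
Thbs4: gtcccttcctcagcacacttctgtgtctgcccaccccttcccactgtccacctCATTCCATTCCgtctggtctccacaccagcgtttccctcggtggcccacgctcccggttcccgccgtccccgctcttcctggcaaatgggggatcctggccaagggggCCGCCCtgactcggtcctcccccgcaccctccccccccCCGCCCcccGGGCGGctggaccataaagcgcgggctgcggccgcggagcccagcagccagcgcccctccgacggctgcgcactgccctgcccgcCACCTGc
GC boxes begin 89, 51 and 42 bases before the start, and the E2 box begins 43 bases after it. The TEAD motif occurs at 197 and 192 bases before the start, the pair sharing a base on the opposite strand. A TEAD motif was found in 14.6% of all windows and in 12.1% of those of the adhesion genes. The remaining searches gave a TATA box (TATAAA) in 13.6% of all windows and 15.2% of these, a CCAAT box in 37.4% and 24.2%, an AP-1 motif (TGANTCA) in 7.8% and 9.1%, and a CArG box in 1.6% and 3.0%.

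Thbs3, also pentameric, had replicate means of 7.22 and 7.34 in control and 8.96 and 7.70 in proline. Across single arrays, Thbs3 ran from 7.18 to 7.39 in control (median 7.26) and from 7.65 to 8.98 in proline (median 8.35). Both proline replicates were higher, but they differed from each other by 1.26, more than the lower of them differed from control. The difference was 1.05 ± 0.43 (SE; limma adjusted p = 0.258). Thbs1, a trimeric thrombospondin that binds CD47 and activates TGF-beta, had replicate means of 5.83 and 7.57 in control and 6.69 and 9.97 in proline. In each group of Thbs1 the second replicate was far above the first, and the groups overlapped. Its difference of 1.63 ± 1.23 (SE; limma adjusted p = 0.540) became -0.02 without the second proline replicate. The trophoblast markers averaged 6.07 and 6.79 in the control replicates and 6.68 and 7.31 in the proline replicates. Krt18 had the widest gap of them, 3.16 in control and 1.78 in proline. Of the 7 markers, 7 in control and 6 in proline were also higher in the second replicate of their group. The beta-actin 5′ minus 3′ signal was higher there too, by 0.40 in control and 0.42 in proline, and the 18S ribosomal RNA signal was lower there, with a difference of -0.70 in control and -1.39 in proline. The part of these measures in Thbs1 was not tested. Thbs2, the other trimeric member, was dim in both groups and differed by 0.15 ± 0.12 (SE).

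None of the remaining glycoproteins passed limma's test, beside 4.36% of all genes. By the probe set used their groups overlapped, while 24.6% of all genes had arrays that did not. A second probe set of Emilin1 was lower on every proline array, with a difference of -0.45 ± 0.15 (SE). Fbln2, a basement membrane and elastic fibre protein, had replicate means of 7.41 and 6.38 in control and 5.66 and 6.25 in proline. The first control replicate of Fbln2 stood more than 1 log2 unit above the other 3 values, and the difference was -0.94 ± 0.41 (SE). Tnc, tenascin-C, likewise had its highest mean in the first control replicate (5.94 and 4.95 in control, 4.84 and 5.28 in proline) and differed by -0.38 ± 0.37. Fbln1 differed by 0.34 ± 0.16, Fbln5 by 0.25 ± 0.13 with a dim signal, and Emilin1 by -0.16 ± 0.15. Postn, periostin, was dim in both groups and differed by -0.04 ± 0.16. Fibroblast markers averaged 5.55 and 5.27 in the control replicates and 5.31 and 5.78 in the proline replicates, with 4 of 11 dim in both groups.

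Replicates of the same group differed by a median of 0.18 (control) and 0.26 (proline) in these 36 genes, beside 0.16 in each group over all genes. A gap of at least 1 log2 unit between the replicates of a group occurred in 4 genes: Thbs1, Thbs3, Itga3 and Fbln2. The gap of Thbs1 was 1.74 in control and 3.29 in proline, the widest in both groups.

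**Figure D3:**
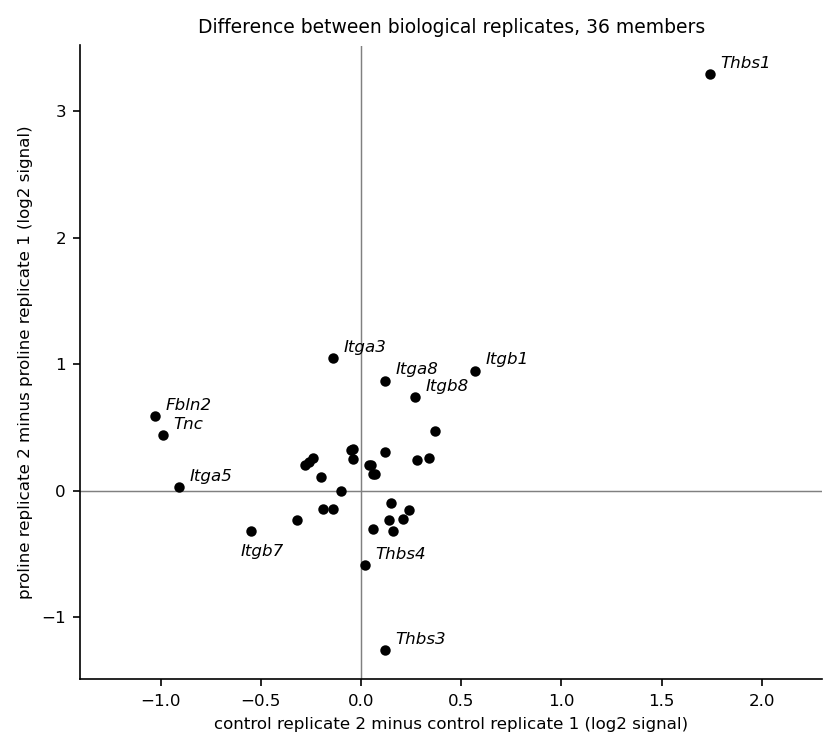
Second minus first biological replicate (log2 signal) in control (x axis) and proline (y axis), 1 point per gene for the 36 genes. Names mark points with a gap of 0.55 or more in a group; Thbs1 lies at 1.74 and 3.29, and Thbs3 at 0.12 and -1.26.

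For 23 of the 36 genes more than 1 probe set could be compared, and in 17 of these all probe sets pointed the same way. The 4 probe sets of Itgb5 gave 0.90, 0.97, 0.98 and 1.10, each with every proline array above every control array. Itga9 gave -0.40, -0.75 and -1.03 with its 3 probe sets, and Itgae gave -0.47 and -0.53. The Itgae probe set at -0.53 ± 0.12 (SE), which was not the one used, was lower on every proline array. Fn1 had a second probe set with replicate means of 10.04 and 9.78 in control and 9.28 and 8.30 in proline. There the proline arrays were all lower, by -1.12 ± 0.36 (SE; limma adjusted p over probe sets = 0.219), while the probe set used overlapped. Itgal also had a second probe set that was lower on all proline arrays (-1.29 ± 0.19; limma adjusted p over probe sets = 0.0661), where the one used gave -0.33. Probe sets of Itgav, Itgb1, Itga4, Itga5, Fbln1 and Fbln5 disagreed in sign. In Itgav the 5 sets ran from -0.37 to 1.10 and in Itgb1 the 6 sets from -0.12 to 0.91. In both the negative value came from a dim set. In Itgav, Itga8, Itga1 and Itgb3 only the probe set used had arrays that did not overlap. The other set gave 0.45 ± 0.36 (SE) in Itga8, 0.02 ± 0.12 in Itga1 and -0.11 ± 0.12 in Itgb3, each from a dim signal. A further probe set of Thbs1 that the annotation shares with another gene was not used.

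**Figure D4:**
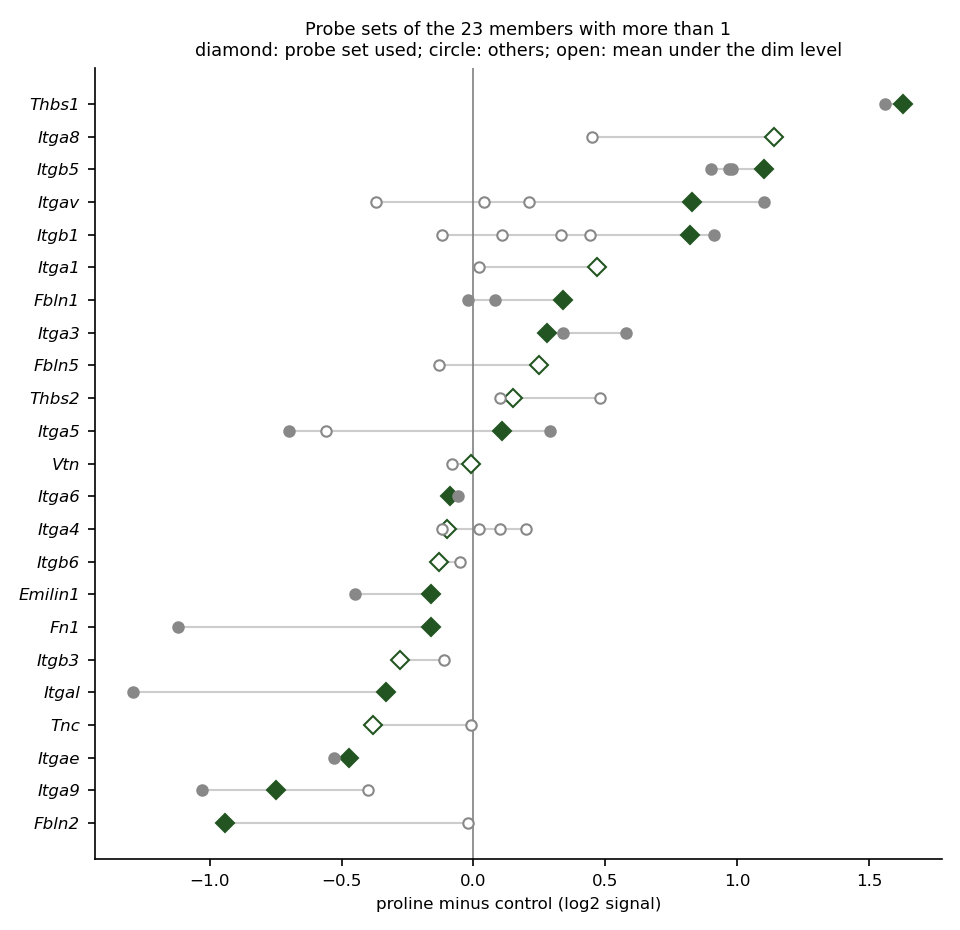
Proline minus control log2 difference of every single-gene probe set of the 23 genes with more than 1; diamonds are the probe sets used, circles the others, and open symbols have a mean below the dim level. The 4 symbols of Itgb5 lie between 0.90 and 1.10, and those of Itgav between -0.37 and 1.10.

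Of the proteins at integrin tails and in adhesion complexes, 39 of 42 listed genes were measured, and 1 rose while 0 fell. That is 2.56%, beside 4.36% of all genes, with a median difference of 0.12. At an unadjusted p under 0.05, limma gave 15 of them, 11 higher and 4 lower, which is 38.5% beside 22.1% of all genes. Of the 39, 0 were dim in both groups, against 5159 of all 18193 genes. With dim genes left out, limma gave 13 of the 39 beside 3295 of 12762 genes at an unadjusted p under 0.05. The list was also chosen with earlier results of these data known. Zyx, the focal adhesion protein zyxin, rose by 2.48 ± 0.32 (SE; limma adjusted p = 0.0363), from 7.75 and 8.63 in the control replicates to 10.59 and 10.76 in the proline replicates. Next by p were Bcar1, the Src substrate p130Cas, at 0.68 ± 0.13, Cd47, a thrombospondin receptor, at 0.90 ± 0.18, and Tgfb1i1, the paxillin relative Hic-5, at 1.25 ± 0.26. These 3 did not pass limma's threshold (adjusted p = 0.0712, 0.0771 and 0.0796), although their proline arrays were all above their control arrays.

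Among other integrin ligands and matricellular genes, 45 of 48 listed genes were measured, and 3 rose and 3 fell. That is 13.3%, beside 4.36% of all genes, with a median of 0.02. At an unadjusted p under 0.05 there were 21, or 46.7% beside 22.1% of all genes. This list was chosen with earlier results of these data known, so an excess over all genes cannot be read as a property of the gene class. Hmcn1, a fibulin relative, rose by 1.26 ± 0.12 (SE; limma adjusted p = 0.0274) but remained dim, with replicate means from 3.61 to 4.98. Nid1, a basement membrane linker, fell by 2.05 ± 0.21 on the log2 scale (limma adjusted p = 0.0289), from 10.39 and 10.11 to 7.96 and 8.44. Mmrn2, an emilin relative, fell by 1.77 ± 0.24 (limma adjusted p = 0.0386) and Lama1, a laminin alpha chain, by 1.45 ± 0.22 (limma adjusted p = 0.0442). Ccn1, a matricellular ligand of integrins, and Mfap2, a microfibril protein, were the other 2 that rose, by 3.15 ± 0.47 and 0.87 ± 0.13. In both lists, leaving out any 1 of the 4 replicates left 0 genes past limma's adjusted threshold, as it did over all 18193 genes. Such fits keep only 1 value in a group, so they cannot judge the calls in either list.

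**Figure D5:**
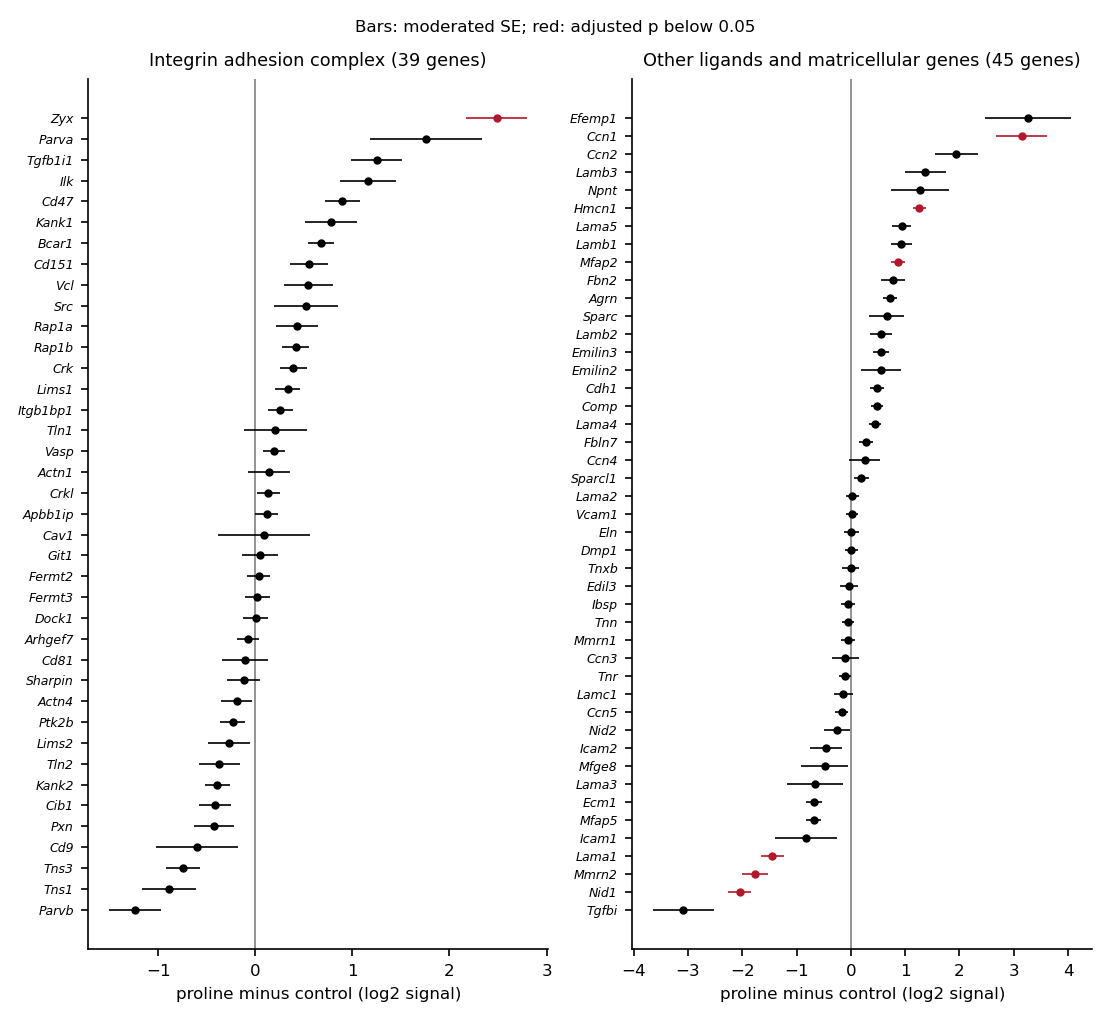
Proline minus control log2 difference of the 39 adhesion complex genes (left) and the 45 other ligand and matricellular genes (right); points compare 2 with 2 biological replicate means, bars are limma's moderated SE, and the x scales differ. Red marks an adjusted p below 0.05: Zyx on the left, and Ccn1, Hmcn1, Mfap2, Lama1, Mmrn2 and Nid1 on the right.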

How the data were processed

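The authors deposited log2 probe set signals, already brought to a common scale. The submitters' processing notes name MAS5 and RMA, and which of them made the table is not given in the sources used here. Array medians lay between 5.98 and 6.03. Of 45101 probe sets, 34945 had 1 gene symbol in the platform annotation, 932 had several, 9160 are unnamed here and 64 are array controls. Each of the 18193 genes was taken from its probe set with the highest mean.

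The 3 arrays of a biological replicate were averaged, and the 4 means were fitted with lmFit and eBayes (limma 3.58.1, R 4.3.3; two-sided; Benjamini-Hochberg over all genes; threshold 0.05). The fit had 2 residual degrees of freedom, plus 2.60 from the prior. With 2 against 2 values, exact permutation cannot give a p below 0.333. Figures were drawn with matplotlib 3.10.9. Promoter windows are RefSeq's.

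Full statistics are given for genes past the threshold, for genes whose arrays separated the groups, and for Itgb1, Itgav, Itga5, Itga6, Fn1 and Vtn; from each other list the 4 genes with the smallest p are named, and Ccn1 and Mfap2 were added after their values were seen. The genes and lists were chosen with earlier results of these data known. Alternatives covered normalization, dim genes, probe set choice, unit of replication, the replicate number as a block, the variance model, a fold minimum and each replicate left out.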

Additional observations from a re-analysis of the deposited data

Results flagged for a closer look

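In 4 of 72 groups of 6 arrays, 1 array stood apart from the other 5 by Dixon's criterion (gap over range above 0.625). Chance gives this in about 1 of 20 groups of independent values. Each group here holds 2 biological replicates of 3 arrays, so that rate need not apply. Itgb3 had a signal of 5.62 on array a of the first control replicate, with the next array at 5.39. Itga9 had 5.98 on array a of the first proline replicate, with the next at 6.33. Itga2 had 4.99 on array b of the second proline replicate, with the next at 5.17. Itgae had 5.92 on array a of the second proline replicate, with the next at 6.21. The 4 flags fall on 4 different arrays.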

How the results depend on the processing

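With 2 biological replicates a group, the count of genes past the threshold moved widely while most differences kept their direction. Over all genes the count was 794, and it became 351 with the median over probe sets, 187 with every probe set tested by itself (34945 tests), 3987 with 12 arrays and a random block, and 6804 with 12 independent arrays, which treats arrays of 1 replicate as separate samples. For the 36 adhesion genes the same 4 settings gave 0, 0, 12 and 18. Quantile normalization gave 2 (Itgb7 and Thbs4), beside 748 of all 18193 genes. Leaving out dim genes gave the same 2, there of 20 genes, beside 910 of 12762. An intensity trend gave 3 (Itgb7, Itgb8 and Thbs4), beside 937 of 18193. At an unadjusted p under 0.05, the median over probe sets gave limma 10 of the 36 genes, beside 3708 of 18193. Testing every probe set gave 20 of their 77 probe sets at that level, beside 6502 of 34945. Adhesion complex genes past the threshold numbered 0 with every probe set, 16 with the random block and 24 with independent arrays. Of their 92 probe sets, 30 had an unadjusted p under 0.05 in limma, beside the same 6502 of 34945. The other ligand genes numbered 2, 2, 20 and 23 under the 4 settings. With the replicate number as a fixed replicate block, the counts were 2039 over all genes, 8 adhesion genes (Itga8, Itga9, Itgav, Itgb1, Itgb5, Itgb7, Itgb8 and Thbs4), 7 adhesion complex genes and 14 other ligand genes. The labels do not say that a number marks anything shared between groups, so the samples were not treated as paired. Over genes, the second minus first replicate of control and of proline correlated at 0.338, a hint from the data and not the design that same-numbered samples deviate together. Leaving out each replicate in turn gave 0 in all 4 counts, lowest and highest alike, with 2766 to 3676 of all genes and 7 to 12 of the 36 below 0.05 in limma without adjustment. Some settings bring more tests or samples, and leaving out a replicate leaves 1 value in a group and fewer residual degrees of freedom. The part of each in these moves was not tested.

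Directions reversed in these cases. With the probe set of each gene that lay least in the reported direction, Itgav gave -0.37, Itga5 -0.70, Itga4 0.20, Itgb1 -0.12, Fbln1 -0.02 and Fbln5 -0.13. With the median over probe sets, Itga5 gave -0.18 and Itga4 0.01, and with quantile normalization Itga2b gave -0.02 and Vtn 0.01. Leaving out a replicate gave ranges across 0 for Itga5 (-0.35 to 0.57), Itga2b (-0.12 to 0.13), Itga3 (-0.25 to 0.81), Itga6 (-0.19 to 0.01), Itga7 (-0.23 to 0.03), Itga4 (-0.21 to 0.01), Itgb2 (-0.01 to 0.19), Fn1 (-0.33 to 0.01), Vtn (-0.08 to 0.06), Thbs1 (-0.02 to 3.27), Tnc (-0.88 to 0.11) and Postn (-0.18 to 0.09). Of these genes, none had passed the threshold. The median over all genes stayed at -0.03 with quantile normalization and with median centring.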
